A study of Mus musculus with 16 samples.

Results

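Respiratory complex I was examined at the level of its messenger RNAs in the quadriceps muscle of mice that overexpress Ant1. The genes were chosen by symbol: every symbol that begins with Nduf, followed by a, b, c, s or v and a digit, together with Ndufab1, while the assembly factors named Ndufaf were left out. This gave 39 of the 19108 gene symbols in the files. Of these 39, 36 encode subunits of complex I: 7 of the catalytic core, 9 accessory subunits of the matrix arm, 9 of the proximal membrane arm, 10 of the distal membrane arm and the acyl carrier Ndufab1. The other 3 symbols share the name only. Ndufa4 is now assigned to complex IV, cytochrome c oxidase, Ndufa4l2 is its paralog, and Ndufb4c is annotated as a processed pseudogene whose 75-base words all (100%) also occur in Ndufb4 or in another copy.

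Complex I is the entry point of electrons from NADH into the respiratory chain of the inner mitochondrial membrane. Its matrix arm holds the flavin and the iron-sulfur clusters that carry electrons to ubiquinone, and its membrane arm pumps protons. The core subunits do the catalysis and are conserved down to bacteria, whereas the accessory subunits surround the core and serve assembly and stability. The core subunits of the membrane arm are encoded by mitochondrial DNA, of which 0 symbols are listed, so they were not analysed here.

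RNA was prepared from the quadriceps of 16 C57BL/6 mice aged 6 months. The groups were 4 Tg females, 4 Tg males, 4 WT females and 4 WT males. Tg mice carry an Ant1 transgene, given in the labels as ANT1(Tg)/+, and WT mice carry none; which promoter drives the transgene, and how many lines were used, is not given in the sources used here. Ant1, now named Slc25a4, encodes the muscle form of the carrier that exchanges ADP and ATP across the inner mitochondrial membrane. Its level was 8510 to 11000 counts per 1000000 (CPM) in the 8 Tg libraries and 2790 to 3920 CPM in the 8 WT libraries, so every library matched its genotype label. Libraries held 17.44 to 30.68 counts in units of 1000000. The defining muscle markers Ckm, Acta1, Mb, Myh4 and Tnnt3 summed to 112000 to 167800 CPM in Tg and 124200 to 203500 CPM in WT libraries. In bulk muscle, fewer cells of a type and less RNA per cell cannot be told apart.

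Stretches of sequence upstream of the genes' RefSeq starts are shown first, because respiratory chain genes are known to share binding motifs for a few activators, among them the nuclear respiratory factor NRF1. A promoter window of 250 bases before the gene's start was found for 33 of the 39 symbols in RefSeq (build GRCm38.p6). The NRF1 motif, which is GCGCA and GCGC with any 1 base between them, searched on both strands, occurred in 6 of the 33 windows (18.2%) and in 7.09% of the windows of 14701 genes. These 6 were the windows of Ndufa11, Ndufa5, Ndufa8, Ndufb4, Ndufs5 and Ndufs6. The copy of Ndufs6, wholly inside annotated exons, is not printed. Further copies of Ndufb4 are not printed either; the outermost lay outside annotated exons and the innermost inside them. From each of the 5 windows other than that of Ndufs6, 1 copy reads as follows, with the motif in capitals.
Ndufa5 (chr6:24527697-24527726, minus strand): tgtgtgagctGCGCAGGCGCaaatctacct
Ndufa8 (chr2:36049349-36049378, minus strand): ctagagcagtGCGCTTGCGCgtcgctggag
Ndufa11 (chr17:56717692-56717721, plus strand): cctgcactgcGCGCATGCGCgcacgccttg
Ndufb4 (chr16:37654428-37654457, minus strand): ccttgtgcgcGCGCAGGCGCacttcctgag
Ndufs5 (chr4:123718265-123718294, minus strand): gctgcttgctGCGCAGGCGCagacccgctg
All 5 lie upstream of the RefSeq start, but the GENCODE M21 annotation has exons further out. The stretches of Ndufa5 and Ndufa8 lay wholly inside annotated exons, that of Ndufb4 for 26 of its 30 bases, and those of Ndufa11 and Ndufs5 outside them. Of the genes in this set, Ndufa5 was higher in Tg females by the test given below, while the other 4 were not called in any comparison over all 16 libraries with edgeR and TMM factors. With libraries left out, Ndufb4 was called lower without WT female 3 and Tg male 2, and Ndufa11 higher in females without WT female 4. The motif AAGGTCA of the oestrogen-related receptors occurred in 3 of 33 windows (9.1%), those of Ndufb2, Ndufb4 and Ndufs5, against 4.18% of all windows. The ETS motif CCGGAAG, bound by GABP, occurred in 3 of 33 (9.1%), those of Ndufb6, Ndufb7 and Ndufs3, against 12.15% of all windows. The YY1 motif AAGATGGC was in 0 of 33 windows against 2.01%, and TGATGNAA, the element bound by ATF4 with C/EBP partners, was in 0 of 33 against 2.67%. A window may hold several of these motifs, as those of Ndufb4 and Ndufs5 did, and a match is a description of letters.

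The stretches just upstream of Ndufa4 and Ndufc1 are shown because both genes were lower in Tg muscle in nearly every version of the test. Each is 150 bases long and ends at the base before the first annotated exon, 48 bases before the RefSeq start for Ndufa4 and 34 bases before it for Ndufc1.
Ndufa4 (chr6:11907498-11907647, minus strand): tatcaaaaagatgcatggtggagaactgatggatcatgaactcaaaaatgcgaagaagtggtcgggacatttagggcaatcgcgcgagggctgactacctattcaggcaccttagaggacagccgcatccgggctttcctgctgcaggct
Ndufc1 (chr3:51408989-51409138, minus strand): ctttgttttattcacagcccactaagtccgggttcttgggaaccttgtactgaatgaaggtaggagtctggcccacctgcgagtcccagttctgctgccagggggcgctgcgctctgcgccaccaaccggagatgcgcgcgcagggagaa
Neither window held any of the 5 motifs. The upstream stretches had a GC content of 51.3% for Ndufa4 and 59.3% for Ndufc1.

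Most complex I messages in Tg muscle lay close to their WT level. Averaged over the sexes, 7 of the 39 symbols changed, 3 higher (Ndufa7, Ndufa2 and Ndufs8) and 4 lower in Tg, among them Ndufc1, Ndufv3 and the complex IV subunit Ndufa4. Among the 36 true subunits, 6 (16.7%) were called, at an adjusted p under 0.05 by edgeR's quasi-likelihood test over 13666 genes, against 30.4% of all genes tested. By direction, 17.2% of all genes were called higher and 13.3% lower. The 36 fold changes ran from 0.86 to 1.19, with a median log2 fold change of 0.02 for the subunits and -0.01 for all genes. Their 95% intervals together spanned 0.785-fold to 1.37-fold. Summed over the 36 genes, the level was 5971 ± 286.5 CPM in Tg and 5946 ± 522.7 CPM in WT libraries (SD, n = 8 each).

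**Figure D1:**
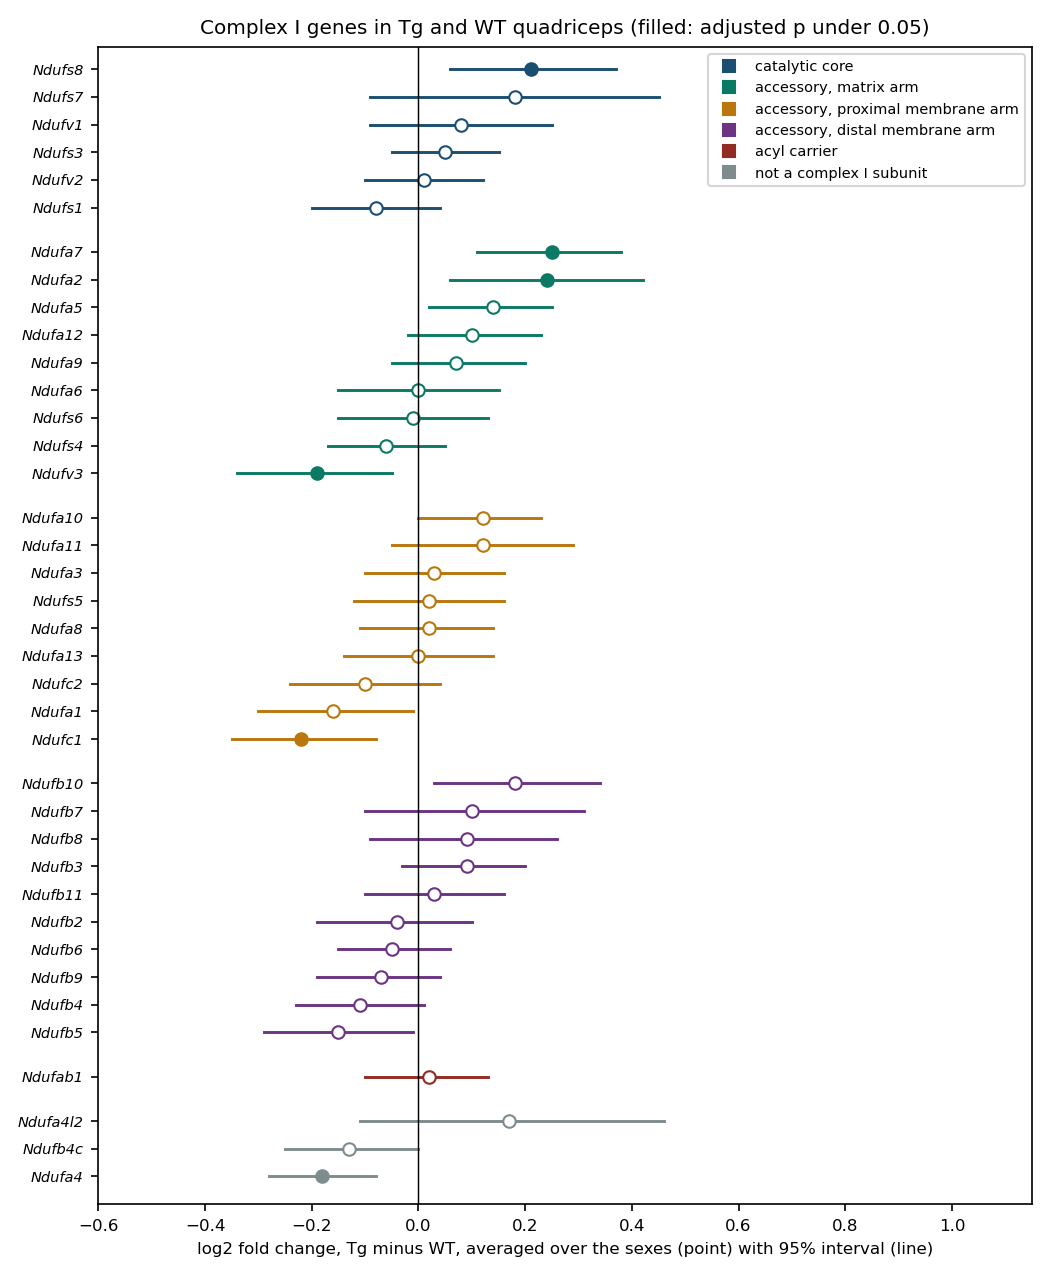
Each point is the log2 fold change of 1 of 38 symbols, Tg minus WT averaged over the sexes, and the line is its 95% interval; symbols are grouped and coloured by role and filled points have an adjusted p under 0.05. The subunits stay between -0.22 and 0.25, and called genes of both directions occur in the matrix arm.

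Of the catalytic core, Ndufs8, which carries iron-sulfur clusters on the path to ubiquinone, was higher in Tg. It had 120, 117, 124 and 120 CPM in Tg females and 115, 128, 98.3 and 104 CPM in Tg males, against 100, 111, 82.5 and 113 CPM in WT females and 92.2, 111, 90.0 and 99.5 CPM in WT males. All 4 Tg females lay above all WT females, and the males overlapped. The log2 fold change was 0.21 (SE 0.07, adjusted p = 0.035, edgeR). Ndufs8 lies on chromosome 19 from 3908863 to 3912774 (minus strand, ENSMUSG00000059734.7, build mm10). Its call was lost without any 1 of 10 libraries (Tg female 1, 3 and 4, Tg male 1 and 2, WT female 1 and 3, WT male 1, 3 and 4), with adjusted p between 0.0204 and 0.0846 over all 16 omissions by edgeR.

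The core genes Ndufv1, Ndufv2, Ndufs1, Ndufs3 and Ndufs7 passed no test over all 16 libraries with edgeR and no covariate. In males Ndufs1 was called lower by DESeq2 and with the slow fibre covariate, and in females Ndufs3 was called higher without WT female 4. Ndufv1, which binds the flavin and NADH, averaged 299 ± 17.2 CPM in Tg and 283 ± 40.4 CPM in WT (SD, n = 8 each). Ndufs1, the largest core subunit, had the most negative log2 fold change of these at -0.08 (SE 0.06), and Ndufs7, which holds the last iron-sulfur cluster before ubiquinone, the most positive at 0.18 (SE 0.13). Ndufs7 was the least even of all 39 symbols, with a coefficient of variation of 18.6% over the 16 libraries. It reached 295 CPM in Tg male 2 and 103 CPM in WT female 3, while the other 14 libraries lay between 177 and 227 CPM. The mean was 216 ± 35.9 CPM in Tg and 191 ± 37.7 CPM in WT (SD, n = 8 each).

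Of the 9 accessory genes of the matrix arm, 2 were higher and 1 was lower. Ndufa7, an accessory subunit of this arm, showed the smallest adjusted p of the 39 symbols in the averaged comparison. It had 119, 106, 110 and 97.3 CPM in Tg females and 108, 111, 97.4 and 98.1 CPM in Tg males, against 92.0, 83.2, 72.6 and 98.5 CPM in WT females and 95.5, 91.4, 94.2 and 87.0 CPM in WT males. The males did not overlap, and in females only Tg female 4 and WT female 4 crossed. Its log2 fold change was 0.25 (SE 0.06, adjusted p = 0.00737, edgeR), or 1.19-fold. Ndufa7 lies on chromosome 17 from 33824572 to 33838317 (plus strand, ENSMUSG00000041881.13) and shares no exon with another gene.

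Ndufa2, a matrix arm subunit with a thioredoxin-like fold, had 123, 128, 121 and 112 CPM in Tg females and 128, 164, 112 and 112 CPM in Tg males, against 107, 110, 79.7 and 115 CPM in WT females and 117, 110, 106 and 103 CPM in WT males. Its groups overlapped in both sexes, and the extremes were Tg male 2 and WT female 3. The log2 fold change of 0.24 (SE 0.09) had an adjusted p of 0.0473 by edgeR. Without any 1 of 11 libraries (Tg female 1, 2 and 3, Tg male 1 and 2, WT female 1 and 3, and each WT male) the adjusted p passed the threshold, reaching 0.092 at most. The gene lies on chromosome 18 from 36742332 to 36744557 (minus strand, ENSMUSG00000014294.4), and 66 bases of its exons overlap Tmco6 on the opposite strand.

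Ndufv3, a small subunit beside the flavin site, was lower in Tg. It had 74.7, 61.4, 71.7 and 70.6 CPM in Tg females and 66.6, 69.4, 67.5 and 63.7 CPM in Tg males, against 77.9, 81.0, 57.8 and 79.0 CPM in WT females and 86.7, 78.2, 88.9 and 74.9 CPM in WT males. The males did not overlap, and in females all but WT female 3 lay above every Tg library. The log2 fold change was -0.19 (SE 0.07, adjusted p = 0.0455, edgeR). This call, close to the threshold, was lost without any 1 of 13 libraries (all except Tg female 1, WT female 3 and WT male 4), with adjusted p up to 0.097 by edgeR. The log2 fold change lay between -0.24 and -0.16 over all 16 omissions. Ndufv3 lies on chromosome 17 from 31520115 to 31531331 (plus strand, ENSMUSG00000024038.17).

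The other 6 genes of the matrix arm were not called in the averaged comparison. Ndufa5 stood at 0.14 on the log2 scale (SE 0.06, adjusted p = 0.0776, edgeR), and Ndufs4, a late-joining subunit whose loss causes a Leigh-like encephalopathy in mice, one of -0.06 (SE 0.05). Ndufa6, Ndufs6, Ndufa9 and Ndufa12 had values from -0.01 to 0.10.

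In the proximal membrane arm, 1 of 9 genes was called. Ndufc1, a small subunit of the membrane arm, had 114, 103, 113 and 93.4 CPM in Tg females and 99.8, 88.4, 92.7 and 92.6 CPM in Tg males, against 117, 100, 112 and 132 CPM in WT females and 124, 108, 122 and 108 CPM in WT males. All Tg males lay below all WT males, and the females overlapped. The log2 fold change was -0.22 (SE 0.06, adjusted p = 0.015, edgeR), and it kept an adjusted p under the threshold without each library in turn. Ndufc1, whose upstream sequence is given above, lies on chromosome 3 from 51404677 to 51408988 (minus strand, ENSMUSG00000037152.11). Ndufc2, which neighbours Ndufc1 in the complex, had a log2 fold change of -0.10 (SE 0.07), and Ndufa1 one of -0.16 (SE 0.07, adjusted p = 0.0919, edgeR). At the other end stood Ndufa10 and Ndufa11, both with a log2 fold change of 0.12.

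None of the 10 genes of the distal membrane arm was called in the averaged comparison; 2 had an unadjusted p under 0.05, as did 40.3% of all genes, and DESeq2 called 1 of them, Ndufb5, and limma-voom 0. The log2 fold changes ran from -0.15 (SE 0.07, adjusted p = 0.0929, edgeR) for Ndufb5 to 0.18 (SE 0.07, adjusted p = 0.074, edgeR) for Ndufb10. Ndufab1, the mitochondrial acyl carrier protein that is also a complex I subunit, was the most even gene of all, with a coefficient of variation of 6.13%. Its mean was 115 ± 8.23 CPM in Tg and 114 ± 6.04 CPM in WT (SD, n = 8 each).

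Among the 3 symbols that are not complex I subunits, Ndufa4 was lower. It had 327, 305, 335 and 300 CPM in Tg females and 324, 295, 288 and 299 CPM in Tg males, against 334, 319, 328 and 342 CPM in WT females and 373, 387, 372 and 344 CPM in WT males. The Tg males all lay below the WT males, whereas the female groups overlapped. The log2 fold change was -0.18 (SE 0.05, adjusted p = 0.00938, edgeR). Ndufa4 lies on chromosome 6 from 11900292 to 11907497 (minus strand, ENSMUSG00000029632.7). The paralog Ndufa4l2, known as a hypoxia-inducible gene, was scarce, at 4.58 ± 0.581 CPM in Tg and 4.08 ± 0.913 CPM in WT (SD, n = 8 each), and was not called (log2 fold change 0.17, SE 0.13). Ndufb4 and its copy Ndufb4c share sequence, and 17.2% of the 75-base words of Ndufb4 also occur in an annotated copy. They may therefore share reads, which were not examined, so their counts cannot be separated with certainty. The log2 fold changes of Ndufb4 and Ndufb4c were -0.11 (SE 0.05) and -0.13 (SE 0.06).

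**Figure D2:**
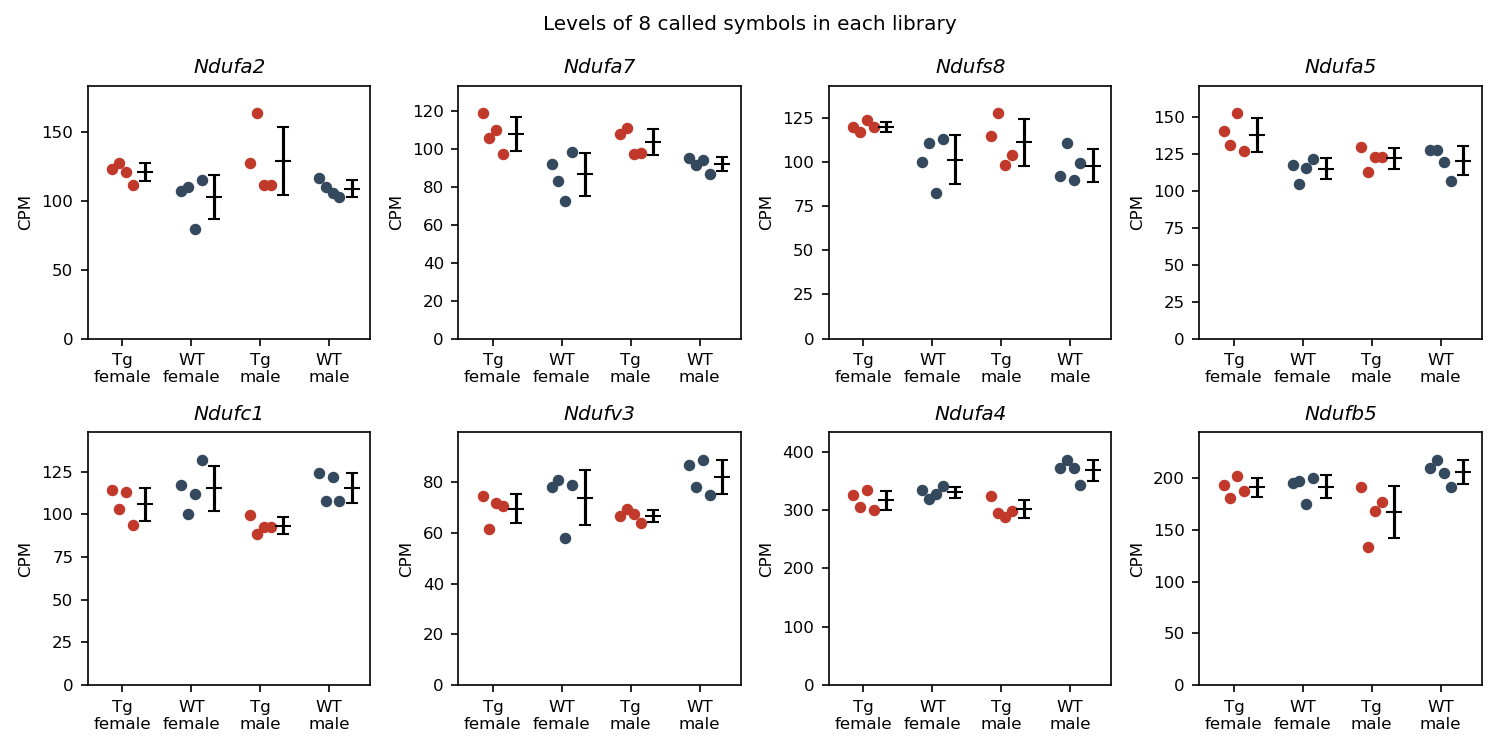
Points give the CPM of each library (4 per group, Tg left of WT within each sex) for 8 symbols called in at least 1 comparison, with the mean and SD as bars. In males Ndufc1, Ndufv3 and Ndufa4 were lower in every Tg than in every WT library, and in females Ndufa5 and Ndufs8 were higher in every Tg library.

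The calls differed in how many versions of the test made them. Ndufa4, Ndufa7 and Ndufc1 were called in 26 of 27 versions of the averaged test, Ndufs8 in 13, Ndufa2 in 11 and Ndufv3 in 10. The version that ended these first 3 calls and left 0 of the 39 symbols called held the slow fibre markers as a covariate. Slow fibre markers summed to 92.68 to 1250 CPM (median 165) in Tg and 64.09 to 173.2 CPM (median 89.6) in WT libraries, for 9 of 9 markers. The covariate was not this sum but the mean of the markers' log2 CPM. By median, all of the markers but Atp2a2 (49.2 CPM in Tg and 49.8 in WT) were higher in Tg. Myh7 had 6.34 CPM in Tg and 0.501 in WT, and Myl2 12.1 and 1.58. With that covariate the log2 fold changes were 0.26 for Ndufa7, -0.17 for Ndufa4 and -0.14 for Ndufc1, with adjusted p of 0.058, 0.0935 and 0.307 by edgeR, and 16.0% of all genes were called. Because most of the markers differed with genotype, this fit cannot separate slow fibres from genotype. The part of slow fibres in the calls was not tested. Without WT female 4, 5 of the 39 symbols were called higher, with Ndufa12 and Ndufb10 added.

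The sexes were examined apart in the same model. In females 2 of 39 symbols were higher in Tg and 0 were lower, against 17.7% of all genes called, 10.1% higher and 7.57% lower. Ndufa7 was higher by 0.32 on the log2 scale (SE 0.09, adjusted p = 0.0217, edgeR). Ndufa5, an accessory subunit of the matrix arm with the NRF1 motif shown above before its RefSeq start, had 141, 131, 153 and 127 CPM in Tg females against 118, 105, 116 and 122 CPM in WT females. These groups did not overlap, and the log2 fold change was 0.25 (SE 0.08, adjusted p = 0.0359, edgeR). Ndufa5 lies on chromosome 6 from 24518666 to 24528013 (minus strand, ENSMUSG00000023089.12). Both calls were lost without Tg female 1, Tg female 3 or WT female 3, and that of Ndufa5 also without WT female 1 or 2, with adjusted p of at most 0.119 for Ndufa5 and 0.073 for Ndufa7. In the versions that ended these calls, 12.5% to 17.0% of all genes were called in females. Without WT female 4, on the other hand, 7 symbols were higher, and 22.8% of all genes were called. Both calls were also lost with the slow fibre covariate (adjusted p = 0.158 for Ndufa5 and 0.125 for Ndufa7, edgeR), where 6.23% of all genes were called in females. Without the 4 libraries richest in adipocyte markers (WT female 1 and 2, WT male 1 and Tg female 4) both were lost, at adjusted p of 0.129 for Ndufa5 and 0.0542 for Ndufa7 and log2 fold changes of 0.24 and 0.38. Without those libraries 13.1% of all genes were called in females. With the adipocyte markers as a covariate over all 16 libraries both were kept, at adjusted p of 0.0491 for Ndufa5 and 0.0237 for Ndufa7 by edgeR. The share of all genes called was then 18.8%. The 8 adipocyte markers summed to 381.4 to 1647 CPM (median 928) in Tg and 335.5 to 3552 CPM (median 632) in WT libraries. Over the 36 subunits the median log2 fold change in females was 0.13, with 30 above 0 and 6 (16.7%) below; the median of all genes was -0.03 and 53.5% of them lay below 0. Without WT female 3 the subunits' median was 0.06, with 26 above 0. Over all 16 libraries, 3 of 4 genes of complex II and 7 of 9 of complex III were above 0 in females. For complexes IV and V the counts were 10 of 14 and 13 of 15. Here and below, the 14 genes of complex IV do not include Ndufa4, which was at -0.06 (SE 0.07) in females.

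In males 5 of 39 symbols were lower in Tg and 0 were higher, against 18.2% of all genes called, 8.39% lower and 9.84% higher. Among the 5 were Ndufc1 at -0.31 (SE 0.09, adjusted p = 0.0237), Ndufb5 at -0.30 (SE 0.09, adjusted p = 0.0346), Ndufv3 at -0.30 (SE 0.10, adjusted p = 0.0441) and Ndufa4 at -0.29 (SE 0.07, adjusted p = 0.00592), all log2 fold changes by edgeR. Ndufb5, of the distal membrane arm, had 191, 133, 168 and 177 CPM in Tg males against 210, 218, 205 and 191 CPM in WT males. The lowest value belonged to Tg male 2, and Tg male 1 reached the lowest WT value. Ndufb5 lies on chromosome 3 from 32736990 to 32751566 (plus strand, ENSMUSG00000027673.12), and 616 bases of its exons overlap Mrpl47 on the opposite strand. Leaving out single libraries, the call of Ndufa4 in males was never lost (adjusted p at most 0.0239). Ndufb5 was lost without Tg male 2 or 3 or WT male 1, 2 or 3 and Ndufc1 without Tg male 2, 3 or 4 or WT male 1 or 3, with adjusted p of at most 0.0965 for Ndufb5 and 0.0709 for Ndufc1. Ndufv3 was lost without any 1 of 11 libraries, up to an adjusted p of 0.128. The slow fibre covariate ended the male calls of Ndufc1 (adjusted p = 0.0763) and Ndufv3 (adjusted p = 0.0902), and not those of Ndufa4 (0.0142) and Ndufb5 (0.0304), all by edgeR. Ndufc1 was also lost without WT female 3 and Tg male 2 (adjusted p = 0.0604), Ndufb5 with no filter (0.0532) and without the adipocyte-rich libraries (0.0594), and Ndufv3 in both of these (0.0611 and 0.0652) and by limma-voom (0.0502). The count in males was 1 without Tg male 3, 2 without Tg male 2, Tg male 4 or WT male 1, 2 or 3, and 7 without WT female 3. The shares of all genes called were 14.9% without Tg male 3, 14.1% to 15.5% where the count was 2, and 20.6% without WT female 3. Over the 36 subunits the median log2 fold change in males was -0.07, with 26 (72.2%) below 0, where the median of all genes was 0.03 and 45.8% of them lay below 0. The lean in males depended on single libraries. Without Tg male 3 the subunits' median was -0.03 with 19 below 0, and without WT male 2 it was -0.05 with 20 below 0. Without Tg male 2 it was -0.1 with 30 below 0, the most of any single omission. Over all 16 libraries, 6 of 9 genes of complex III and 10 of 15 of complex V were also below 0 in males. For complexes II and IV the counts were 1 of 4 and 4 of 14.

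By the values themselves, 4 of 36 subunits (11.1%) had every Tg female above every WT female: Ndufa5, Ndufa9, Ndufs4 and Ndufs8. The share among all genes tested was 10.8%. No subunit had every Tg female below every WT female, against 7.22% of all genes. In males 7 of 36 (19.4%) had every Tg male below every WT male, among them Ndufa13, Ndufb11, Ndufb2, Ndufc1, Ndufc2 and Ndufv3. The share among all genes was 11.7%, and 1 subunit (2.78%), Ndufa7, had every Tg male above, against 14% of all genes. Over both sexes no subunit separated 8 Tg from 8 WT libraries, where 5.23% of all genes lay wholly above and 2.69% wholly below.

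The difference between the sexes was tested as the interaction, the male minus the female log2 fold change. None of the 39 symbols passed, with a smallest adjusted p of 0.51 by edgeR for Ndufs4, and 0.00732% of all genes did. At an unadjusted p under 0.05 there were 10 of 39, against 7.43% of all genes, and the other tools run called 0 as well. The difference leaned one way: 34 of the 36 subunits were below 0 (94.4%), against 45.4% of all genes, with a median of -0.18. Without WT female 3 the median was -0.11 with 31 below 0, and the genes are not independent of each other, because they share the same 16 libraries. The lean was not particular to complex I. Below 0 were also 4 of 4 genes of complex II and 9 of 9 of complex III. For complexes IV and V the counts were 11 of 14 and 15 of 15, with a median of -0.20 for complex V. Ndufa4, which is not among these 14, was also below 0, at -0.23 (SE 0.09). Ndufs4, with the smallest p, had 130, 131, 139 and 132 CPM in Tg females against 124, 122, 127 and 128 CPM in WT females. In males it had 138, 118, 117 and 127 CPM in Tg against 159, 154, 133 and 134 CPM in WT, where Tg male 1 crossed the lower WT values. Its interaction was -0.30 (SE 0.10) on the log2 scale.

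**Figure D3:**
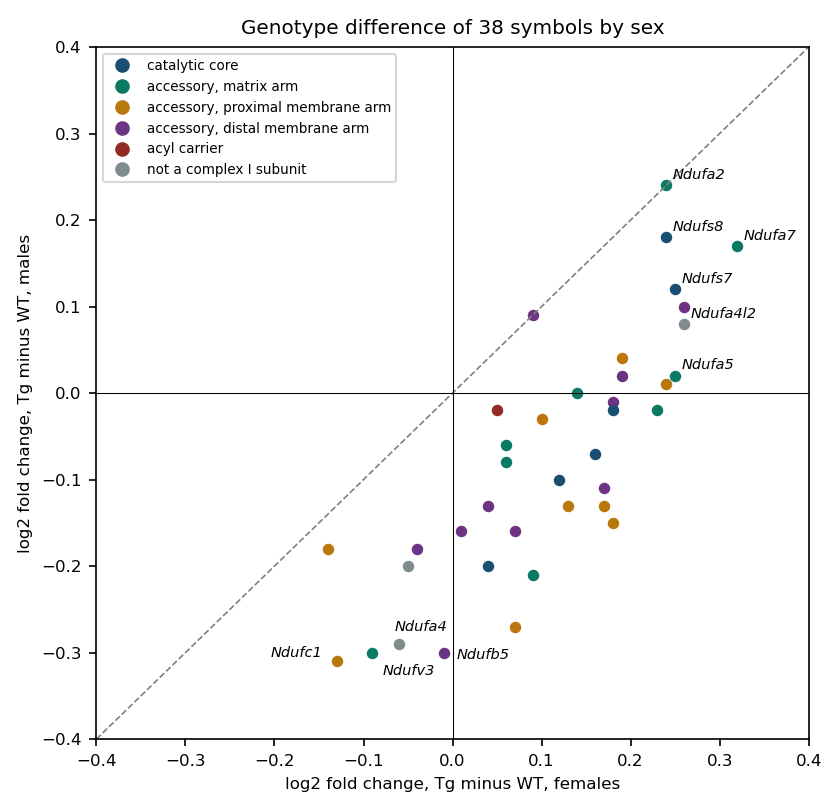
Each point is 1 of 38 symbols, placed by its log2 fold change, Tg minus WT, in females (horizontal) and in males (vertical), and coloured by role; the dashed line marks equal change. Most points lie below the line, and 0 of these differences between the sexes passed the test.

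Sex itself, averaged over the genotypes, changed 0 of the 39 symbols, against 4.43% of all genes; 1 symbol had an unadjusted p under 0.05, as did 17.5% of all genes, and the other tools run called 0. The median male minus female log2 difference of the 36 subunits was 0.03, and it was -0.03 without WT female 3 and Tg male 2.

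Single libraries moved many of these genes together. In WT female 3, 35 of the 36 subunits lay below their mean over the 16 libraries, with a median deviation of -0.27 on the log2 scale and a summed level of 4850 CPM; the other 15 libraries had sums of 5388 to 6599 CPM. In Tg male 3 the same number, 35, lay below their means, with a median deviation of -0.16. Ndufs7, Ndufb7 and Ndufb8 were among the genes furthest below their means in WT female 3, at -0.96, -0.65 and -0.58, while Ndufv2 was at -0.01 and Ndufc1 at 0.07.

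**Figure D4:**
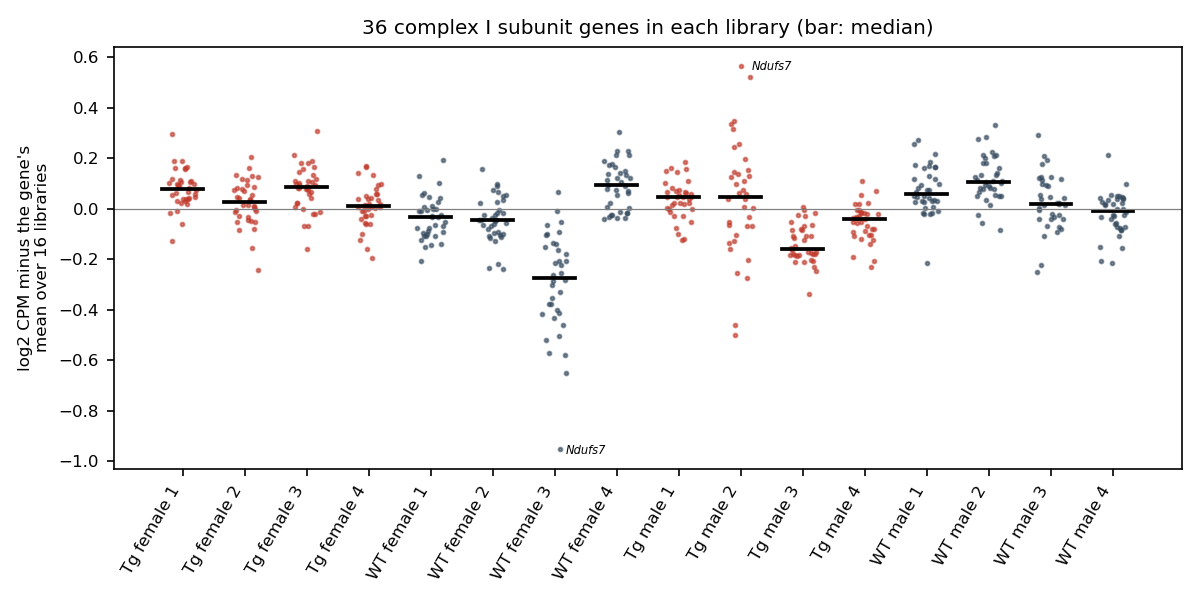
Each dot is 1 of the 36 subunit genes, plotted as its log2 CPM minus its own mean over the 16 libraries; bars mark the median of each library, and Tg stands left of WT within each sex. WT female 3 lies lowest, with a median of -0.27, and Ndufs7 is its lowest gene and the highest gene of Tg male 2.

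In 2 of these libraries the deviation went with the base composition of the gene. GC content was taken from the longest coding transcript of each gene. The Spearman correlation between the deviation of the 36 subunits and this GC content was 0.46 in Tg male 2 and -0.69 in WT female 3. It was within 0.30 of 0 in the other 14 libraries. Across all 13508 genes with a GC value it was 0.49 in Tg male 2 and -0.55 in WT female 3, so the relation was not one of complex I genes alone; genes of a library are not independent replicates. The averaged log2 fold change of the 36 subunits itself had a correlation with GC of 0.36, and of 0.16 without both libraries. Without both, 1 of 39 symbols was higher, Ndufa7, and 7 were lower, among them Ndufa1, Ndufa4, Ndufb4, Ndufb4c, Ndufc1 and Ndufv3. Ndufb4 and Ndufb4c may share reads, as given above, and their log2 levels had a correlation of 0.93, so they may not be separate calls. The calls of Ndufa2 and Ndufs8 were lost in that version, and the share of all genes called was 28.8%. The part of base composition in the calls was not tested.

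**Figure D5:**
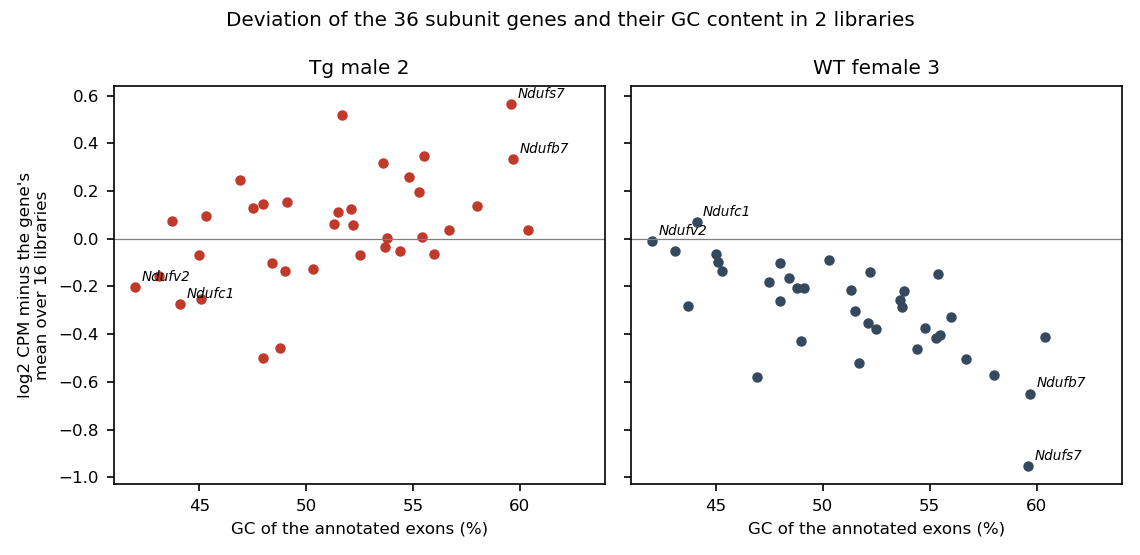
Deviation of each of the 36 subunit genes from its mean over the 16 libraries (log2 CPM, vertical) against its GC content (percent, horizontal) in Tg male 2 and WT female 3. The GC content is that of the gene's longest coding transcript, although the axis names the annotated exons. The points slope upward in Tg male 2 (Spearman correlation 0.46) and downward in WT female 3 (-0.69), with Ndufs7 and Ndufb7 at the GC-rich end and Ndufv2 and Ndufc1 at the GC-poor end.

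The level of each gene per length of its exons differed widely among subunits of the same complex. Per kilobase of annotated exons, the highest level was that of Ndufb9, with 274 ± 15.1 CPM in Tg and 288 ± 22.1 CPM in WT (SD, n = 8 each), and Ndufa4 had 224 ± 12.5 CPM in Tg and 253 ± 17.8 CPM in WT. The SDs of the 2 genes overlapped in WT, while in Tg Ndufb9 stood above Ndufa4 by more than both SDs. The lowest were Ndufa4l2, with 4.18 ± 0.531 CPM per kilobase in Tg and 3.73 ± 0.834 in WT, Ndufb2, with 15.2 ± 1.34 in Tg and 15.7 ± 1.70 in WT, and Ndufab1, with 16.7 ± 1.2 in Tg and 16.5 ± 0.878 in WT. By the median length of the coding transcripts instead, Ndufa4 came first, with 672 ± 37.4 CPM per kilobase in Tg and 760 ± 53.3 in WT, and Ndufb9 second, while the same 3 genes stayed lowest. Within the roles, by exon length, Ndufs1 was the lowest core gene (44.7 ± 3.77 in Tg and 47.2 ± 3.84 in WT), Ndufv3 the lowest of the matrix arm (21.4 ± 1.36 in Tg and 24.5 ± 2.96 in WT) and Ndufa10 the lowest of the proximal membrane arm (56.0 ± 2.70 in Tg and 51.7 ± 4.32 in WT). The highest of these 2 arms were Ndufa2 (219 ± 30.2 in Tg and 185 ± 20.2 in WT) and, in WT, Ndufa1 (178 ± 15.1 in Tg and 198 ± 18.4 in WT). Ndufa13 had 195 ± 12.5 in Tg and 196 ± 23.2 in WT, so in WT its SD overlapped that of Ndufa1. By the length of the coding transcripts, Ndufa6 (367 ± 29.7 in WT) and Ndufa3 (241 ± 20.9 in WT) were the highest of these arms instead. The gene's exon length includes exons that quadriceps may not use, so the order depends on the length chosen; 13.4% of the 75-base words of Ndufb9 also occur in another annotated gene.

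The assembly factors, which build complex I and are not part of it, were examined as a list of 19, of which 18 were tested. Of these, 5 were higher and 1 was lower in Tg, with a median log2 fold change of 0.08 beside 0.02 for the subunits. Nubpl, which delivers iron-sulfur clusters to the complex, averaged 8.77 ± 0.669 CPM in Tg and 7.16 ± 0.641 CPM in WT (SD, n = 8 each; log2 fold change 0.29, SE 0.07, adjusted p = 0.00389, edgeR). Dmac2 (0.27), Ndufaf4 (0.23), Tmem70 (0.17) and Acad9 (0.13) were also higher on the log2 scale, and Tmem186 was lower (-0.20). Among the structural subunits of the other respiratory complexes, 1 of 4 genes of complex II was higher and 0 lower, 3 and 1 of 9 of complex III, 4 and 1 of 14 of complex IV, and 3 and 1 of 15 of complex V. Of 12 regulators of respiratory genes, 3 were higher and 0 lower. These counts stand beside the 17.2% and 13.3% of all genes called higher and lower.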

How the data were processed

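Stranded poly(A) libraries of 16 mice were sequenced as paired-end reads on an Illumina NextSeq, per the labels' protocols. Before deposit the reads went through bcl2fastq, cutadapt 1.2.1, TopHat2 and Bowtie2 on the mm10 build, per the submitters' processing notes, in an order not given there; which program counted them, and whether by strand, is not given in the sources used here. The deposited values were taken as estimated counts per gene symbol, since 95.02% of nonzero values are whole (within 0.01, or 1e-05 of their size) and totals differ; they were rounded, by at most 0.5. Of the 39 symbols, 25 had no fractional value, and the lowest count was 1083 apart from Ndufa4l2.

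In R 4.3.3, edgeR 4.0.16 was fitted to all 16 libraries with 1 mean per group and TMM factors. The filter filterByExpr, at a minimum count of 10 and a minimum total of 15, kept 13666 genes; all 39 symbols passed. The quasi-likelihood F test was two-sided, with Benjamini-Hochberg adjustment over all genes and calls under 0.05. CPM are TMM-scaled. Alternatives were RLE and upper-quartile factors, DESeq2 1.42.0, limma-voom (limma 3.58.1), 2 other filters, covariates and omitted libraries. Gene positions are from GENCODE M21, and exon lengths are unions of exons. The procedure was tested on simulated data without library effects. The changes put into them were larger than those of the 39 symbols, so changes as small as these were not covered.

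The members and lists were chosen with earlier results of these data known. The counts cover all 39 symbols, but 1 symbol is not reported here by name or value, and the plots by symbol omit it. Named were the other called members and, per role, the members with the extreme levels per length and fold changes; of the assembly factors, up to 6 with the smallest adjusted p. A few genes were added after their values were seen: Ndufs7, Ndufs4, Ndufb7 and others named for single libraries or motifs. The labels do not link littermates, and replicate numbers follow the order of deposition, so p-values measure the spread between these mice. Among 24 pairs of libraries of a group, the smallest of the median chi-square values over genes was 1.22, where repeats of 1 library would give 0.455.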

Additional observations from a re-analysis of the deposited data

Results flagged for a closer look

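Within groups of 4 libraries, 44 sets of CPM values, from only a part of the called or named genes, were tested by Dixon's rule. The rule looks for a single value far from the others, which chance meets in about 1 of 20 sets. Of the 44 sets, 2 met it. Genes named in this report but outside these sets were not tested. Ndufs7 stood apart in WT male 2, at 219 CPM beside 206 CPM in each of the other WT males. Ndufv3 stood apart in WT female 3, whose 57.8 CPM compare with 77.9 to 81.0 CPM for the other WT females. No explanation was tested.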

How the results depend on the processing

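No paired analysis was possible because replicates were numbered in order of accession and the labels link no Tg mouse to a WT littermate. No direction of a called gene reversed under any version run. Averaged over the sexes, the count of higher symbols (3) was 1 with RLE factors, 1 without the 4 adipocyte-rich libraries, 0 with the slow fibre covariate and 1 without WT female 3 and Tg male 2, a version added after seeing the data; that of lower symbols (4) was 0 with the slow fibre covariate and 7 without these 2 libraries. Of all genes, 29.7%, 28.5%, 16.0% and 28.8% were called in these versions, in the order named, against 30.4% with none of these changes. In females the count of higher symbols (2) was 0 without the adipocyte-rich libraries and 0 with the slow fibre covariate, and that of lower symbols (0) was 1 without WT female 3 and Tg male 2. The shares of all genes called in females were 13.1%, 6.23% and 15.4%, in that order, against 17.7%. In males the count of lower symbols (5) was 8 by DESeq2, 3 with no filter and 3 without the adipocyte-rich libraries. It also rose with RLE or upper-quartile factors and with a filter on CPM, where Ndufc2 and Ndufs4 were added. The adipocyte covariate added Ndufs4, and 20.5% of all genes were called. Without WT female 3 and Tg male 2, Ndufa1, Ndufb4 and Ndufb4c were added and Ndufc1 was lost, and 18.7% of all genes were called. Leaving out each library in turn gave 1 to 5 higher and 3 to 6 lower averaged over the sexes, 0 to 7 higher and 0 to 0 lower in females, 0 to 0 higher and 1 to 7 lower in males, and 0 to 0 for the interaction and for sex. The cause of these shifts was not tested. The level per transcript length was likewise added after seeing the data. Counts of the 36 subunits were at least 1083 per library, and the median SE of their fold changes was 0.06 (log2) averaged over the sexes and 0.09 within a sex.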
